A study of Arabidopsis thaliana with 16 samples.

Results

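The 10 genes described here encode enzymes that make gibberellin or take it out of action in Arabidopsis thaliana. They were taken by their TAIR10 loci, as GA1 (AT4G02780), GA2 (AT1G79460), GA20OX1 (AT4G25420), GA20OX2 (AT5G51810), GA3OX1 (AT1G15550), GA3OX2 (AT1G80340), GA2OX1 (AT1G78440, symbol ATGA2OX1 in the gene table), GA2OX2 (AT1G30040), GA2OX6 (AT1G02400) and GA2OX8 (AT4G21200). They are 10 of the 27444 protein-coding genes on chromosomes 1 to 5, and every peak listed over the gene body or within 500 bp of it was collected. The genes were selected on their role in gibberellin metabolism and on H3K27me3 and H3K4me3 peak values of these same lists, so all values below are a description and none is tested.

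Gibberellins are growth hormones. The cyclases encoded by GA1 and GA2 build ent-kaurene, the first committed intermediate. GA 20-oxidases and GA 3-oxidases carry out the last steps to the active hormone, and GA 2-oxidases inactivate it or its precursors. Active gibberellin binds GID1 receptors, which leads to the breakdown of DELLA proteins, the repressors of the response. H3K27me3 is a mark of Polycomb-repressed chromatin, and H3K4me3 is found near the starts of transcribed genes.

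The marks were measured by chromatin immunoprecipitation and sequencing (ChIP-seq) in guard cells sorted from protoplasts of the aerial parts of seedlings, at 12 days post germination (dpg), after growth at 22 °C in 16 h light and 8 h dark. FAMA-LGK cells came from fama-1, FAMAp:FAMA-LGK plants, a mutant of the guard cell regulator FAMA that carries an altered FAMA under the FAMA promoter. They are the genetically reprogrammed guard cells of the study, and Wild Type (WT) cells are its fully differentiated guard cells. Each of the 4 peak lists, for 2 marks in 2 genotypes, stands for 2 ChIP and 2 input libraries together.

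No value per replicate stands behind a list, so no replicate error and no test between genotypes can be given. The lists give no read depth, and a difference in depth cannot be told apart from a difference in the mark. A mark carried by fewer cells and a weaker mark per cell cannot be told apart either. H3K27me3 lists held 7652 peaks in FAMA-LGK and 7386 in WT, and H3K4me3 lists held 15989 in FAMA-LGK and 16036 in WT. A gene was called for a mark if peaks covered at least 150 bp of its body. Covered length, in bp, is what peaks cover of the body and of 500 bp on each side. The labelled cell type was checked on marker genes. Of 11 guard cell marker genes, FAMA among them, 9 had an H3K4me3 call in FAMA-LGK and 11 in WT, and GORK and GC1 had 0 bp in FAMA-LGK. H3K4me3 was shorter in FAMA-LGK at all 11, with summed covered lengths of 12003 bp in FAMA-LGK, against 25618 bp in WT, while 3 of the 11 had an H3K27me3 call in FAMA-LGK and 1 in WT. Of 12 markers of pavement epidermis, mesophyll, phloem, trichome and root, 8 had an H3K4me3 call in FAMA-LGK and 7 in WT, with summed lengths of 13259 bp in FAMA-LGK, against 10473 bp in WT. Of all protein-coding genes, 62.2% had an H3K4me3 call in each genotype, close to the share of these 12 markers, and 24.4% had an H3K27me3 call in each. The epidermal gene PDF1 was the one of the 12 that differed in H3K4me3 call. The mesophyll genes CA1, RBCS1A and LHCB1.1 and the epidermal genes ATML1 and PDF2 were called for H3K4me3 in both genotypes. Over the mesophyll genes the covered lengths summed to 4691 bp in FAMA-LGK, against 4634 bp in WT. The root genes PLT1 and PLT2 were at 0 bp of H3K4me3 in both genotypes. Of the trichome genes, GL1 was at 0 bp in both and GL2 had 1024 bp in FAMA-LGK, against 959 bp in WT, and of the phloem genes, APL was at 0 bp in both and SUC2 had 1423 bp in FAMA-LGK, against 661 bp in WT. The part of these marker differences in the values below was not tested.

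At the limit of 150 bp, most of the gibberellin genes carried H3K27me3 in both genotypes, and few carried H3K4me3 in FAMA-LGK. For H3K27me3, 8 of the 10 were called in FAMA-LGK and the same 8 in WT, whereas 24.4% of all protein-coding genes were called in FAMA-LGK and 24.4% in WT. The share called in both genotypes was 8 of 10, against 23.1% of all genes. No member had an H3K27me3 call limited to FAMA-LGK (1.37% of all genes) or limited to WT (1.39%). These counts rest on the limit: with 50% of the body required, H3K27me3 was called at 2 of the 10 in FAMA-LGK (GA1 and GA20OX1) and at 3 in WT (these and GA20OX2), against 20.5% of all genes in FAMA-LGK and 20.5% in WT. The genes were picked with such values known, so these shares are only set side by side. For H3K4me3, 2 of the 10 were called in FAMA-LGK and 5 in WT, against 62.2% and 62.2% of all genes in FAMA-LGK and WT. The 2 called in both were GA2OX2 and GA2OX6 (60.2% of all genes were called in both). GA2, GA3OX2 and GA2OX8 were called for H3K4me3 in WT alone, a state held by 2.03% of all genes, and no member had a call limited to FAMA-LGK, where the share of all genes was 1.99%.

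The lengths under peaks were compared next. H3K27me3 covered length was longer in FAMA-LGK at 4 of the 10 genes and shorter at 5 (14.1% and 15.3% of all genes), with a median change of -33 bp. Over the 9111 protein-coding genes with any H3K27me3 coverage the median change was 0 bp. H3K4me3 covered length was longer in FAMA-LGK at GA2OX6, shorter at 4 genes and at 0 bp in both lists at the other 5 (39.0% of all genes were longer and 30.9% shorter). The median change was 0 bp for the 10 genes and 13 bp for the 19322 genes with any H3K4me3 coverage. Any H3K27me3 coverage in the window was found at 9 of the 10, against 33.2% of all genes, and any H3K4me3 coverage at 5, against 70.4%.

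**Figure D1:**
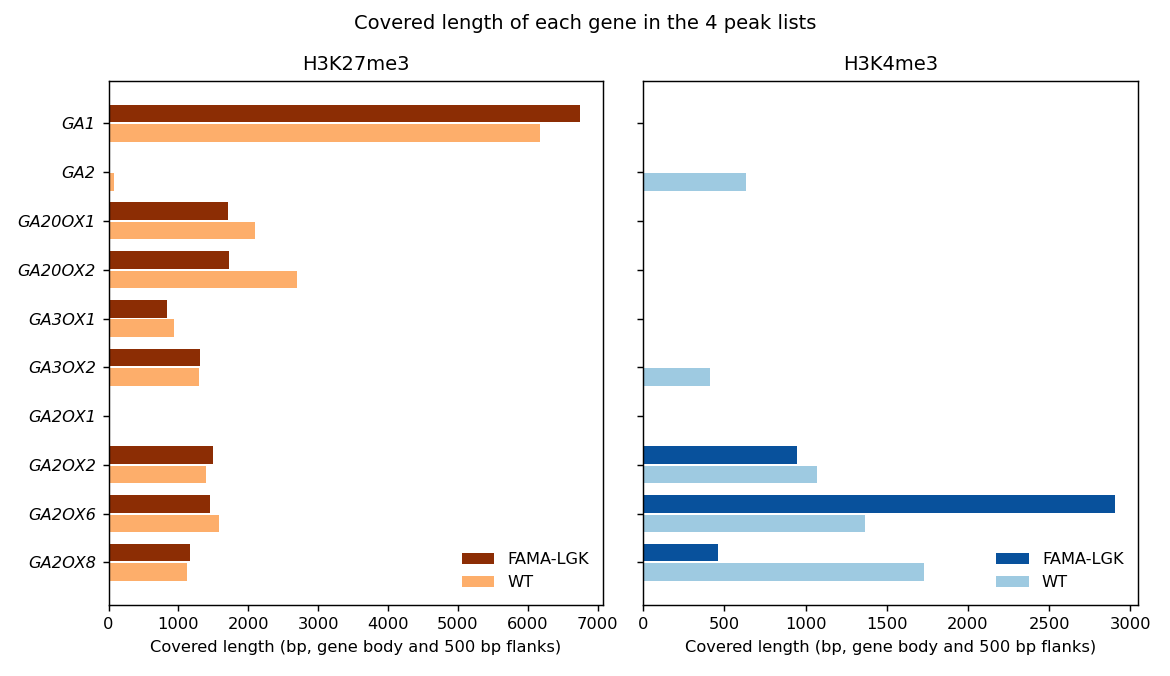
Covered length in bp (x axis) of the 10 genes (rows) for H3K27me3 (left) and H3K4me3 (right), with FAMA-LGK as the upper dark bar and WT as the lower light bar of each pair. The 2 genotypes have H3K27me3 bars at the same genes, while H3K4me3 bars are seen at GA2 and GA3OX2 in WT alone and the GA2OX6 bar is 2903 bp in FAMA-LGK, against 1365 bp in WT.

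The cyclase genes differed from each other in both marks. GA1, which encodes ent-copalyl diphosphate synthase, lay under a single H3K27me3 peak in each list. The FAMA-LGK peak ran over chr4:1236175-1243916 (TAIR10) with a fold of 4.38, and the WT peak over chr4:1237647-1243815 with a fold of 4.26. Folds here and below are the authors' enrichment of ChIP over control at a peak and are read within a list only. In the gene body the peak covered 87.3% in FAMA-LGK and 85.9% in WT, and outside it the FAMA-LGK peak began 1472 bp further out. The FAMA-LGK peak overlapped 2 WT regions of H3K27me3, that of GA1 and another beyond the 500 bp window. The stretch further out was thus not wholly without the mark in WT. The covered length was thus 6746 bp in FAMA-LGK, against 6169 bp in WT, and 101 bp of that difference lay in the body. GA1 had 0 bp of H3K4me3 in both lists, and the nearest H3K4me3 peak began 2385 bp beyond the gene in FAMA-LGK and 2389 bp in WT, at the next gene EMB3129.

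GA2, the ent-kaurene synthase gene, was the only member of the synthesis branch without H3K27me3 in its body. An H3K27me3 peak over the neighbouring gene ALIS5 reached 17 bp into the window of GA2 in FAMA-LGK and 83 bp in WT, which makes it the peak just inside the window. GA2 had 0 bp of H3K4me3 in FAMA-LGK and 635 bp in WT. H3K4me3 at GA2 was thus listed in WT alone. The WT peak, at chr1:29890360-29890994, lay over the lower-coordinate end of the gene, with its summit 287 bp inside. Its fold was 2.51, and 9.0% of the peaks of the WT list had a lower −log10 q. The nearest FAMA-LGK peak of H3K4me3 lay 1227 bp beyond the other end of GA2, past the window. The gene table gives no strand, so gene ends are named by coordinate and not by transcription.

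Both GA 20-oxidase genes carried H3K27me3 and no H3K4me3, and the H3K27me3 lay in 2 regions in FAMA-LGK and in 1 in WT. These enzymes act at the steps before the last in synthesis and often set its rate. GA20OX1 had FAMA-LGK peaks at chr4:12990384-12991541 and chr4:12991849-12992398, with folds of 2.22 and 1.89, against a WT peak at chr4:12990371-12992473 with a fold of 2.61. These peaks were below the middle of their lists. In FAMA-LGK 25.9% and 10.4% of peaks were lower in −log10 q, and in WT 40.6%. The 307 bp between the FAMA-LGK peaks lay inside the gene. Peaks covered 71.5% of the body in FAMA-LGK and 93.5% in WT, and the covered lengths were 1708 and 2103 bp in FAMA-LGK and WT. The outer edges lay close to those of WT. With gaps of up to 500 bp closed, the change at GA20OX1 was -88 bp in place of -395 bp.

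GA20OX2 lay inside a much wider H3K27me3 domain. In FAMA-LGK its peaks were chr5:21044314-21056004, 11691 bp with a fold of 8.74, and chr5:21056984-21063195, 6212 bp with a fold of 3.77. In WT it was 1 peak over chr5:21044333-21062793, 18461 bp with a fold of 7.47. In both genotypes it touched GA20OX2 and the neighbouring gene AT5G51800, and its outer edges lay 19 and 402 bp further out in FAMA-LGK. The domain thus kept its outer limits, and the break fell on the gene. Of the 979 bp between the FAMA-LGK peaks, 877 bp lay in the body of GA20OX2. Peaks covered 48.5% of the body in FAMA-LGK and all of it in WT, and the covered length was 1724 bp in FAMA-LGK, against 2703 bp in WT. Of the 9111 genes with H3K27me3 coverage, 119 had a greater loss in FAMA-LGK than GA20OX2. The summit of the domain lay 6559 bp (FAMA-LGK) and 6521 bp (WT) below the lower-coordinate end of the gene, outside its window, so the fold of that peak does not describe the gene itself.

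Among the 6832 genes with 1 WT region of H3K27me3 in the window and at least 1 in FAMA-LGK, 6.81% had 2 or more FAMA-LGK regions. The reverse, 2 or more WT regions where FAMA-LGK had 1, was found at 6.11% of 6781 genes. GA20OX1 and GA20OX2 were the members in the first state, and no member was in the second. At GA1 the FAMA-LGK peak did overlap 2 WT regions, but 1 of them lay beyond the window. This measure was chosen after the values were seen. H3K4me3 was 0 bp at both genes in both lists, and its nearest peaks lay 12348 bp (FAMA-LGK) and 12322 bp (WT) from GA20OX1 and 10394 bp (FAMA-LGK) and 10331 bp (WT) from GA20OX2.

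**Figure D2:**
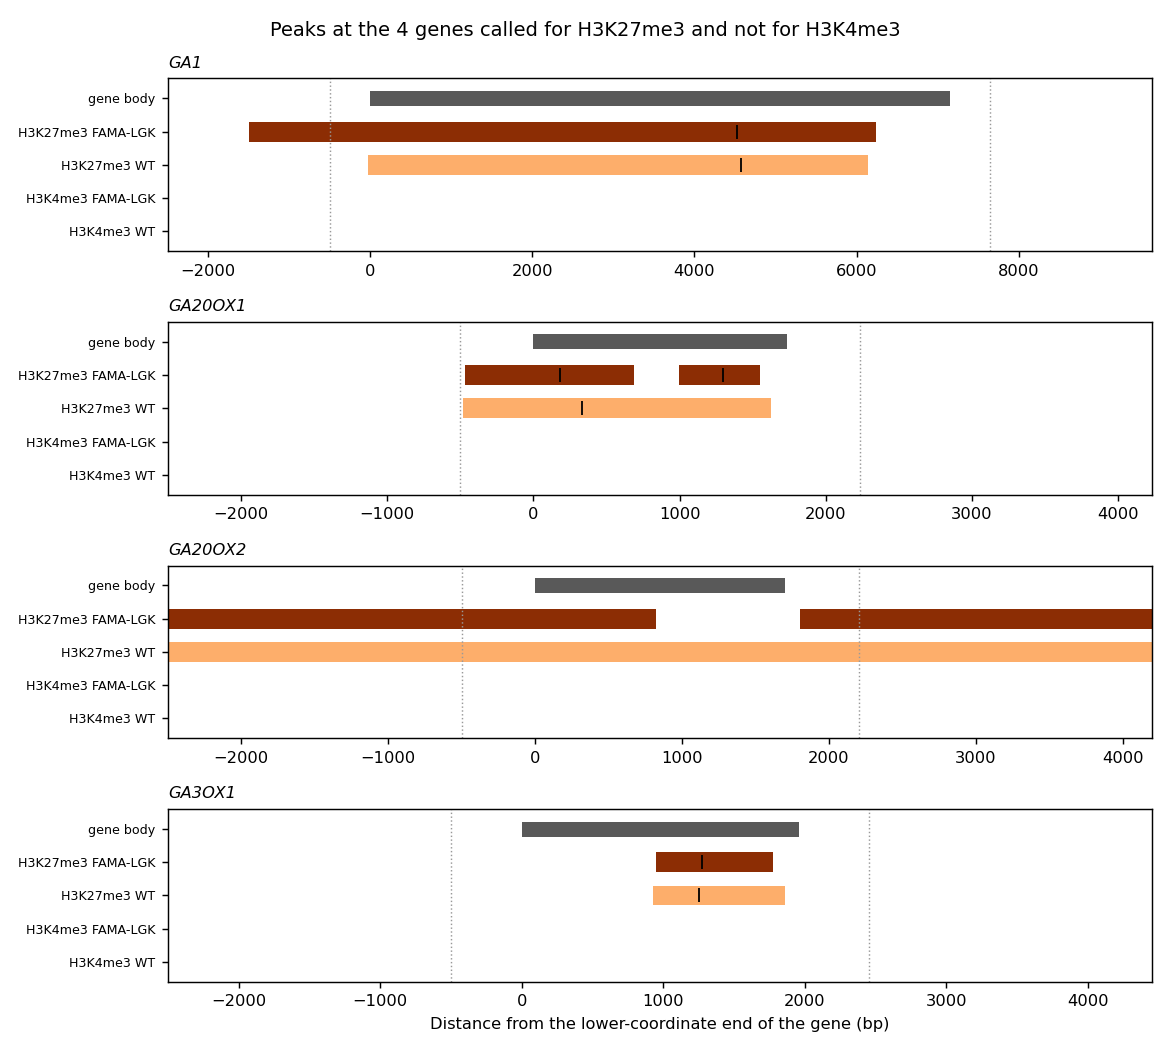
Maps of GA1, GA20OX1, GA20OX2 and GA3OX1, with the distance in bp from the lower-coordinate end of the gene on the x axis, the gene body in grey, peaks as coloured bars (cut at the edge of the panel), summits as black ticks and the 500 bp window as dotted lines. The FAMA-LGK peaks leave a gap of 307 bp in GA20OX1 and of 979 bp at GA20OX2, where the WT bar runs through.

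The GA 3-oxidase genes, which encode the enzymes of the last activating step, were partly covered by H3K27me3 in both genotypes. At GA3OX1 the FAMA-LGK peak, chr1:5345334-5346165 with a fold of 2.84, and the WT peak, chr1:5345313-5346245 with a fold of 2.80, both lay inside the gene. Their widths were 832 and 933 bp in FAMA-LGK and WT, and their summits were 24 bp apart. GA3OX1 had no H3K4me3 in either list.

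At GA3OX2 the H3K27me3 peak covered the higher-coordinate part of the body, 42.9% in FAMA-LGK and 42.4% in WT, and went on past the gene. Its covered length was 1308 bp in FAMA-LGK, against 1299 bp in WT. It ran over chr1:30201542-30205360 in FAMA-LGK, with a fold of 5.13, and over chr1:30201551-30205436 in WT, with a fold of 5.52. The lower-coordinate part had 0 bp of H3K4me3 in FAMA-LGK, against 412 bp in WT, from a peak at chr1:30200732-30201143. The marks thus lay on separate parts of GA3OX2 in WT, and H3K27me3 alone was listed in FAMA-LGK. That WT peak had a fold of 2.08 and was among the weakest of its list, with 4.5% of peaks lower in −log10 q. Its 412 bp were the shortest stretch that made a call among the 10 genes, against the limit of 150 bp. Between it and the H3K27me3 peak lay 407 bp without either mark.

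The GA 2-oxidase genes, whose products inactivate gibberellin, varied among themselves. GA2OX1 had no peak of either mark in any of the 4 lists. Its nearest H3K27me3 peak began 3330 bp (FAMA-LGK) and 3278 bp (WT) beyond the gene, and its nearest H3K4me3 peak 4110 bp (FAMA-LGK) and 4288 bp (WT) beyond. Of all genes, 16.3% were called for neither mark in either genotype.

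GA2OX2 carried the marks side by side in both genotypes. The H3K4me3 peaks, chr1:10537746-10538692 in FAMA-LGK and chr1:10537667-10538736 in WT, lay in the lower-coordinate part of the gene and were 947 and 1070 bp wide in FAMA-LGK and WT. Their folds were 2.15 in FAMA-LGK and 3.59 in WT, and 5.6% and 19.5% of the peaks of those lists were lower in −log10 q. At the other end of GA2OX2 lay H3K27me3. Its peaks, chr1:10539053-10541380 and chr1:10539153-10541232 in FAMA-LGK and WT, began in the body and ended past the other end, with covered lengths of 1492 bp in FAMA-LGK, against 1392 bp in WT. The stretch without either mark was 360 bp in FAMA-LGK, against 416 bp in WT. The H3K27me3 summit lay past the higher-coordinate end in FAMA-LGK and inside the body in WT, 571 bp apart, so that GA2OX2 would be called for H3K27me3 in WT alone if a summit in the body were required (2.18% of all genes).

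GA2OX6 was the gene with more H3K4me3 in FAMA-LGK. Its H3K4me3 peak, chr1:486701-489603, was 2903 bp wide in FAMA-LGK, and the WT peak, chr1:486763-488127, was 1365 bp wide. The peaks began 62 bp apart, and the FAMA-LGK peak ended 1476 bp further into the gene. The added stretch was a part of GA2OX6 with no H3K4me3 peak in WT. The mark covered 98.3% of the body in FAMA-LGK and 46.6% in WT. The fold was 6.02 in FAMA-LGK, with 96.9% of the peaks of that list lower in −log10 q, and 3.83 in WT, with 25.5% lower.

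The gain of 1538 bp at GA2OX6 was exceeded by 48 of the 19322 genes with H3K4me3 coverage. Of the 16526 genes called for H3K4me3 in both genotypes, 0.526% had a covered length at least 2 times as long in FAMA-LGK, and GA2OX6 was 2.13 times as long. H3K27me3 at GA2OX6 stayed in place, with peaks at chr1:486853-488038 (1186 bp, fold of 3.55) in FAMA-LGK and chr1:486837-487998 (1162 bp, fold of 3.11) in WT. A second H3K27me3 peak, over the neighbour AT1G02405, reached into the window from beyond the gene. The H3K27me3 covered lengths of GA2OX6 were 1451 bp in FAMA-LGK, against 1578 bp in WT.

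GA2OX8, which acts on precursors with the longer carbon skeleton, showed the reverse for H3K4me3. In the body it had 0 bp in FAMA-LGK, against 1234 bp in WT, which came from peaks at chr4:11302666-11303128 (fold of 1.89) and chr4:11305644-11306430 (fold of 2.28). Both peaks were near the bottom of the WT list, where 3.0% and 7.7% of peaks were lower in −log10 q. In both genotypes a further peak that touched the neighbouring gene RP1 reached into the window, at chr4:11306813-11308223 in FAMA-LGK and chr4:11306794-11308258 in WT. With it, the covered length of GA2OX8 was 458 bp in FAMA-LGK, against 1727 bp in WT, and 113 of the 19322 genes had a greater loss in FAMA-LGK. H3K27me3 at GA2OX8 was placed almost alike in both lists. It covered the lower-coordinate end and the sequence before it, over chr4:11301192-11303352 in FAMA-LGK (fold of 4.76) and chr4:11301260-11303307 in WT (fold of 3.75). Their covered lengths were 1171 bp in FAMA-LGK, against 1126 bp in WT, and their summits were 1 bp apart.

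**Figure D3:**
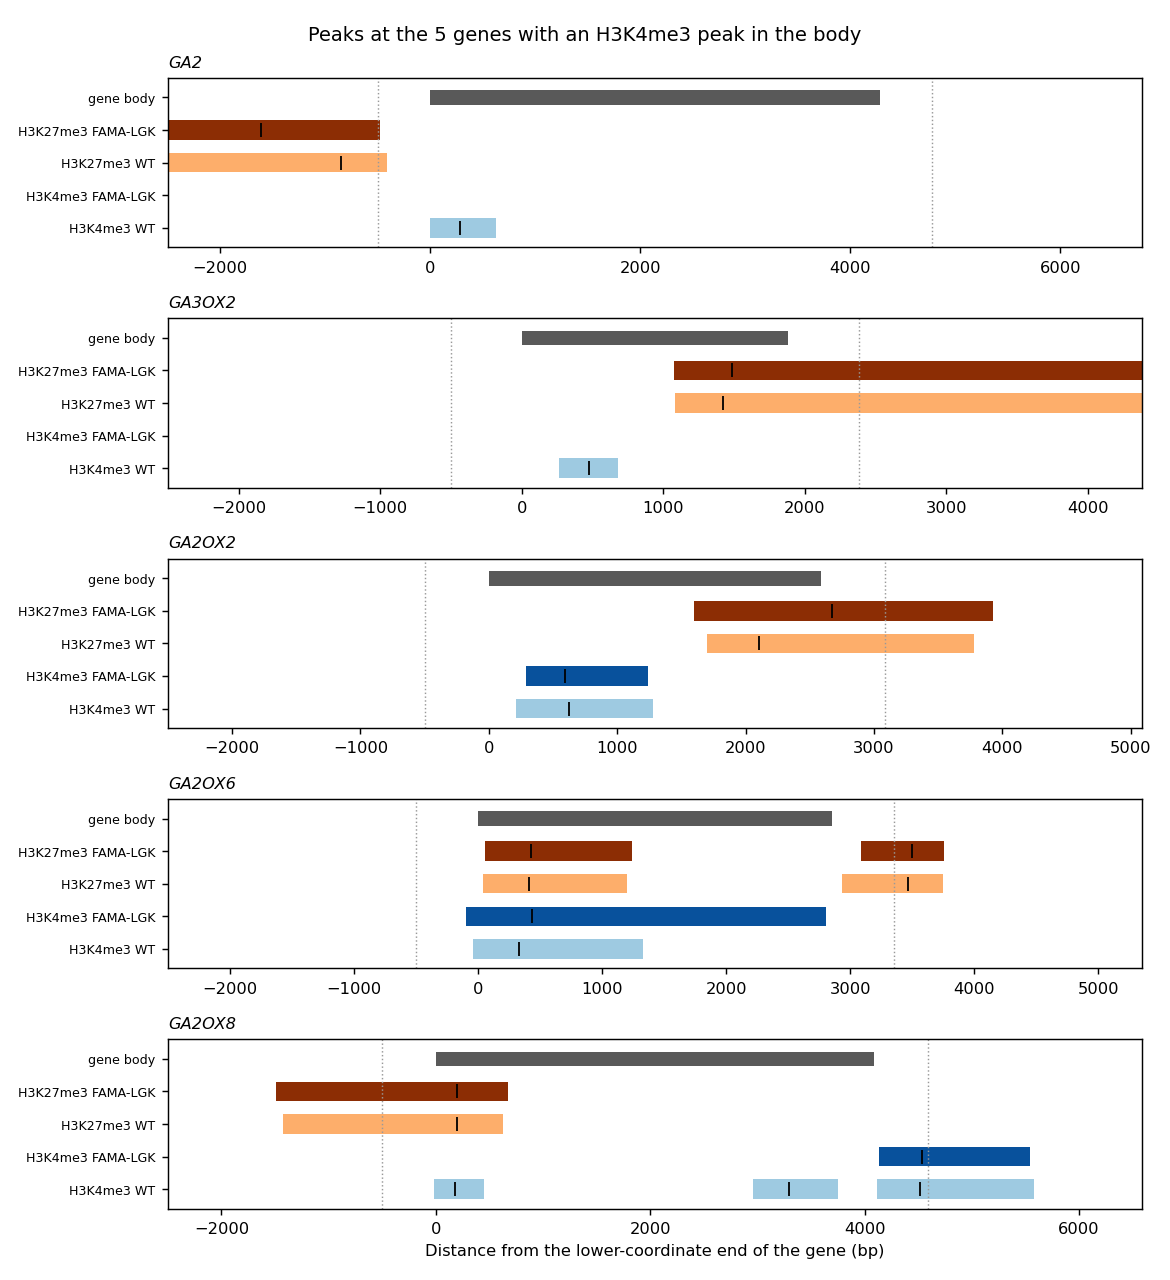
Maps of GA2, GA3OX2, GA2OX2, GA2OX6 and GA2OX8, with the distance in bp from the lower-coordinate end on the x axis, gene bodies in grey, summits as ticks, the 500 bp window dotted, bars cut at the panel edge, and H3K27me3 in browns and H3K4me3 in blues and FAMA-LGK above WT. H3K4me3 bars inside GA2, GA3OX2 and GA2OX8 are seen in WT alone, and the FAMA-LGK bar at GA2OX6 ends 1476 bp further into the gene than the WT bar.

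The 3 calls of H3K4me3 in WT alone rested on weak peaks. The 4 WT peaks behind them had folds of 1.89 to 2.51, where the median of the WT list was 5.04, and none overlapped a FAMA-LGK peak. When the weaker 50% of each list by −log10 q was left out, GA2, GA3OX2 and GA2OX8 were called in neither genotype and GA2OX6 was called in FAMA-LGK alone (3.87% of all genes), and with 50% of the body required the same calls resulted (3.52% of all genes in FAMA-LGK alone). At GA2OX8 the difference in call was also lost with 500 bp flanks, because of the peak that touches RP1. Some H3K27me3 calls rested on weak peaks too. With the weaker 50% of each list left out, H3K27me3 was called at 6 members in FAMA-LGK and 6 in WT. Of all genes, 16.5% and 16.3% were then called in FAMA-LGK and WT. GA20OX1 and GA3OX1 were the members that lost the call in both genotypes.

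Both marks were called in the body of GA2OX2 and GA2OX6 in FAMA-LGK and of GA3OX2, GA2OX2, GA2OX6 and GA2OX8 in WT, against 4.51% of all genes in FAMA-LGK and 4.97% in WT. In both genotypes this was so for 2 of the 10, against 3.43% of all genes. The marks shared bases at GA2OX6, with 1186 bp in FAMA-LGK, against 1162 bp in WT, which is the whole of the H3K27me3 peak in the body in each list. At GA2OX8 they shared 0 bp in FAMA-LGK, against 463 bp in WT. At GA3OX2 and GA2OX2 they lay on separate stretches in each list that held both. Whether both marks lay on the same chromosomes or in different cells was not tested. H3K27me3 in both genotypes with H3K4me3 in neither was found at GA1, GA20OX1, GA20OX2 and GA3OX1, 4 of the 10, against 18.2% of all genes. Among the 6329 genes called for H3K27me3 in both genotypes, 2.88% had an H3K4me3 call in FAMA-LGK alone, 3.48% had one in WT alone, and 2 of the 8 members in that class, GA3OX2 and GA2OX8, were called in WT alone.

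The members were also set against 26 other genes of gibberellin metabolism and response. Genes of the steps between the cyclases and the oxidases had H3K4me3 in both genotypes and no H3K27me3. In the body, GA3, the ent-kaurene oxidase gene, had 1172 bp of H3K4me3 in FAMA-LGK, against 1219 bp in WT. Of the genes for ent-kaurenoic acid oxidation, KAO1 had 652 bp of its body under H3K4me3 in FAMA-LGK, against 694 bp in WT, and KAO2 had 608 bp in FAMA-LGK, against 276 bp in WT. The peaks in these bodies also touched the neighbouring genes AT1G05170 (KAO1) and AT2G32430 (KAO2). Those at KAO2 were weak, with folds of 2.5 in FAMA-LGK and 1.93 in WT. In −log10 q, 10.3% and 3.3% of the peaks of those lists were lower. Further peaks at neighbouring genes reach the windows of GA3, KAO1 and KAO2, so their covered lengths are not given. Of the 8 other GA 20-, 3- and 2-oxidase genes, 7 were called for H3K27me3 in FAMA-LGK and 6 in WT, and none for H3K4me3 in either. Of all genes, 24.4% were called for H3K27me3 and 62.2% for H3K4me3 in each genotype. The bodies of GA20OX4, GA3OX3 and GA2OX7 were wholly covered by H3K27me3 in both lists.

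GA2OX3 had no peak of either mark, as did GA2OX1. GA3OX4, which lies 928 bp from GA3OX2, was called for H3K27me3 in FAMA-LGK alone (1.37% of all genes). It had 450 bp in FAMA-LGK, against 0 bp in WT, at a FAMA-LGK peak with a fold of 1.84. An H3K4me3 peak over the neighbouring gene AT1G80320 reached 103 bp (FAMA-LGK) and 141 bp (WT) into the body of GA3OX4, short of the limit for a call. Its summit lay 384 bp (FAMA-LGK) and 394 bp (WT) before the lower-coordinate end of GA3OX4. GA20OX5 had H3K27me3 over all of its body in FAMA-LGK and over 75.2% in WT, the opposite order to GA20OX1 and GA20OX2.

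The other inactivating enzymes followed the oxidases. GAMT1 and GAMT2, which methylate gibberellin, and the cytochrome P450 genes ELA1 and ELA2 were called for H3K27me3 in both genotypes (23.1% of all genes). GAMT1 was the only one of the 26 called for H3K4me3 in WT alone, a state held by 2.03% of all genes. It had 0 bp of its body under H3K4me3 in FAMA-LGK and 721 bp in WT, at a WT peak with a fold of 2.11.

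Most genes of perception and response had H3K4me3 and no H3K27me3. Of 11 genes for receptors, DELLA proteins and their turnover or modification, 10 had an H3K4me3 call in FAMA-LGK and the same 10 in WT. For H3K27me3, 3 of the 11 had a call in both. Of all genes, 60.2% were called in both genotypes for H3K4me3 and 23.1% for H3K27me3. The 3 of 11 with H3K27me3 thus lay near the share of all genes. All 5 DELLA genes (GAI, RGA, RGL1, RGL2 and RGL3) were called for H3K4me3 in both lists, each with a longer covered length in FAMA-LGK, by a median of 114 bp. Longer was also the more common direction over all genes, with 39.0% longer and 30.9% shorter. GID1B and RGL3 carried both marks in both genotypes, and SNE, an F-box gene related to SLY1, carried H3K27me3 and no H3K4me3. H3K4me3 covered length over the 11 genes summed to 16340 bp in FAMA-LGK, against 15348 bp in WT.

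**Figure D4:**
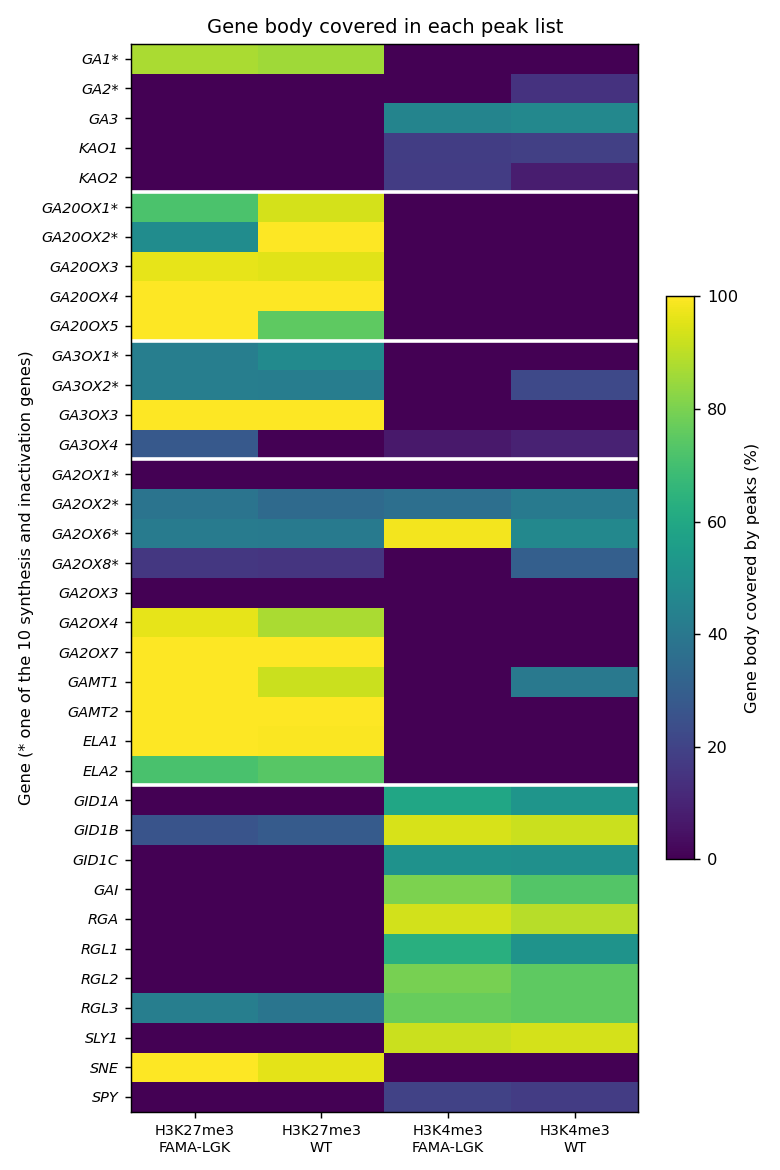
Share of the gene body under peaks, in percent (colour), for the 10 genes (marked with an asterisk) and 26 other gibberellin genes (rows, split by white lines into early steps, GA 20-oxidases, GA 3-oxidases, inactivation and response) in the 4 lists (columns). Most GA 20- and 3-oxidase and inactivation rows are brighter in the H3K27me3 columns, and most response rows in the H3K4me3 columns, and the GA2OX6 row shows 98.3% under H3K4me3 in FAMA-LGK and 46.6% in WT.

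Over the genes with coverage, the 5th and 95th percentiles of the change in covered length, FAMA-LGK minus WT, were -580 and 557.5 bp for H3K27me3 and -441 and 465 bp for H3K4me3. For H3K27me3, GA20OX2 (-979 bp) and GA1 (577 bp) lay outside this range, and the other members, such as GA20OX1 (-395 bp), inside. For H3K4me3, GA2OX6 (1538 bp), GA2OX8 (-1269 bp) and GA2 (-635 bp) lay outside, and GA3OX2 (-412 bp) and GA2OX2 (-123 bp) inside. These ranges describe the spread between genes and are not an error of any value.

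**Figure D5:**
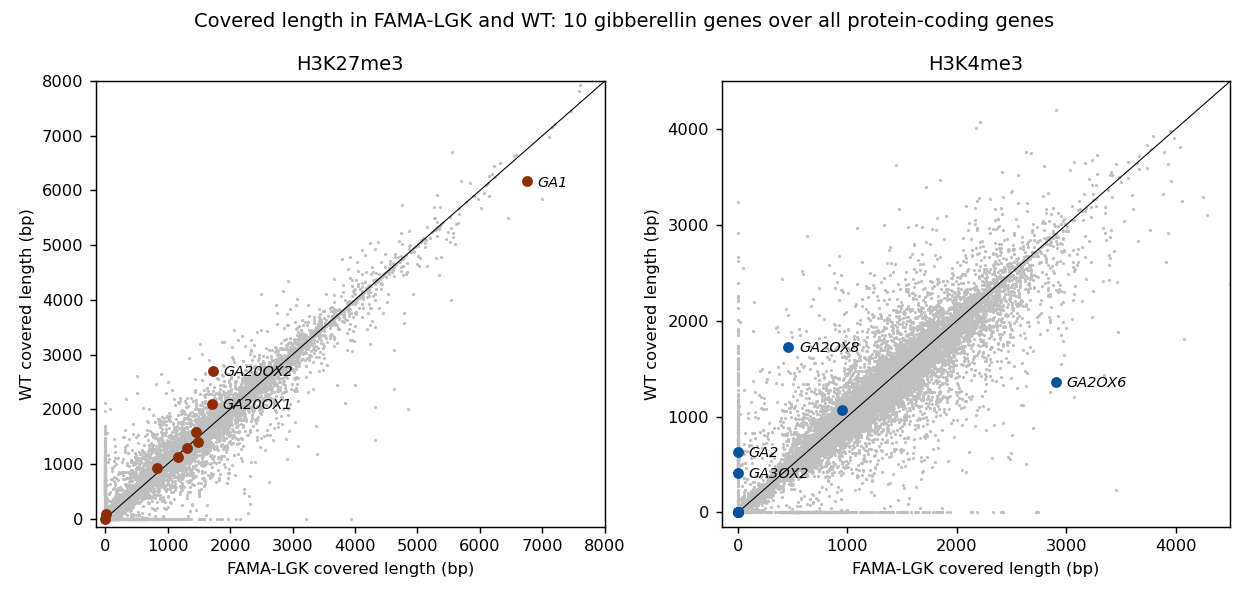
Covered length in bp in FAMA-LGK (x axis) and WT (y axis) for H3K27me3 (left) and H3K4me3 (right), with all protein-coding genes in grey, the 10 gibberellin genes as coloured points and equality as a line. For H3K27me3, GA20OX1 and GA20OX2 lie above the line and GA1 lies below it. For H3K4me3, GA2OX6 lies below the line and GA2OX8, GA2 and GA3OX2 above it. Beyond the axes lie 1 gene for H3K27me3 and 8 for H3K4me3.

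The genes closest in covered length over the 4 lists were looked up for the 3 members whose calls differed. For GA2 they were FRO1 and MEB2, each with a summed difference of 105 bp, and AT1G78780 with 109 bp. For GA3OX2 they were AT3G02673, SSL2 and AT1G18975, with summed differences of 105, 114 and 157 bp. For GA2OX8 they were MYB74, AT2G19660 and NAC6, with 616, 806 and 807 bp. MYB74, for example, had H3K4me3 covered lengths of 544 bp in FAMA-LGK, against 1626 bp in WT, beside 1497 and 1229 bp of H3K27me3 in FAMA-LGK and WT.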

How the data were processed

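The deposited data were 4 narrowPeak lists, which per the labels belong to libraries pooled by mark and genotype. The submitters' processing notes name TAIR10 as the build and list MACS2, Bowtie2 and CASAVA 1.8.2, with no role for any. The threshold for peaks, and how replicates entered a list, were not given in the sources used here. The deposited columns are a score (not used), the fold of ChIP over control as a ratio, and the −log10 q of each peak. Depth is unknown.

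Genes were placed and named by a RefSeq table of TAIR10.1, used only to place peaks at genes. The share of WT H3K4me3 summits inside genes, 95.4 to 97.0% by chromosome, was highest without any shift on all 5 chromosomes. Peaks were merged, and coverage was computed with Python 3.11.15, numpy 2.4.6 and pandas 2.3.3. The functions were tested on simulated data. All coordinates are of deposited peaks and count from 1. No sequences or strands were used here.

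All 10 members are named. The 26 other gibberellin genes are given by group, with names where a call differs or a group is described, and for each member with a differing call the 3 genes of nearest profile. Members, lists and markers were chosen with earlier results of these data known.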

Additional observations from a re-analysis of the deposited data

How the results depend on the processing

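No test stands behind any value, so a count or median was taken as unmoved if it stayed within 1.5 times its value. Counts and medians kept theirs with a −log10 q of at least 5, with equal numbers of peaks and with 1 bp of the body. The medians also did so with gaps merged and with 1000 bp flanks for the length. With 500 bp flanks for the call, 2 counts moved up to the edge of that limit. H3K4me3 was then called at 3 members in place of 2 in FAMA-LGK, and at 2 in place of 3 in WT alone. The shares of all genes were 67.0% and 1.97%. With 50% of the body required, H3K27me3 was called at 2 members in FAMA-LGK and 3 in WT (20.5% and 20.5% of all genes), and at 1 (GA20OX2) in WT alone (1.20%). H3K4me3 was then called at 1 member in FAMA-LGK and 0 in WT (25.2% and 24.3% of all genes), with 1 (GA2OX6) in FAMA-LGK alone (3.52%) and 0 in WT alone (2.61%). The 50% of peaks highest in −log10 q gave those same H3K4me3 counts of 1, 0, 1 and 0, against 34.0, 34.3, 3.87 and 4.18% of all genes, and a median H3K27me3 change of 0 bp in place of -33 bp. These settings leave out weak peaks and short stretches by construction. A summit in the body gave 1 member (GA2OX2) called for H3K27me3 in WT alone (2.18% of all genes). Over the body alone the median H3K27me3 change was 4.5 bp, so its sign depends on the window. Of 120 changes in covered length of single members under the alternatives, 104 stayed within 1.5 times and 16 did not. The 104 include changes of 0 bp at members without a peak of the mark in either list, which could not move. These were GA2OX1 for both marks, and GA1, GA20OX1, GA20OX2 and GA3OX1 for H3K4me3. Among the 16, the H3K27me3 change at GA2OX6 turned from -127 bp to 24 bp over the body alone. No paired analysis was possible because each list stands for its replicates together, and for the same reason no replicate could be left out.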

Other observations

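Genes next to the members differed from each other in their marks. RP1, which lies 174 bp from GA2OX8 and encodes a regulator of pyruvate phosphate dikinase, had H3K4me3 covered lengths of 1411 bp in FAMA-LGK, against 1465 bp in WT. ALIS5, 155 bp from GA2, was called for H3K27me3 in both genotypes with 2178 bp in FAMA-LGK, against 2221 bp in WT. RIP4, 539 bp from GA2OX1, had 0 bp of both marks in all 4 lists, as GA2OX1 did. GPAT2, 3426 bp from GA2OX6, had H3K4me3 covered lengths of 1015 bp in FAMA-LGK, against 0 bp in WT, and H3K27me3 of 2540 bp in FAMA-LGK, against 2792 bp in WT. It thus differed in the same direction as GA2OX6 for H3K4me3. The neighbours were looked up after the values of the members were seen.

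At RGL3, the DELLA gene with both marks, the H3K27me3 covered length was 1816 bp in FAMA-LGK, against 1416 bp in WT. In the body it was 966 bp in FAMA-LGK, against 877 bp in WT. The covered lengths include a peak over the neighbouring gene PC1 in both lists. A FAMA-LGK peak of 4363 bp began in the body and ran past the gene, where WT had peaks of 877 and 3039 bp. In number of regions this was the reverse of GA20OX1 and GA20OX2. The WT peak of 3039 bp lay wholly past RGL3, over AT5G17500 and AT5G17510. The FAMA-LGK peak had its summit 1308 bp past RGL3, so these peaks mostly describe the neighbours.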
